A study of Mus musculus with 2 samples.

Results

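The myosin light chains and the kinases that phosphorylate them were examined in interscapular brown adipose tissue (BAT) of mice without the Taf7l gene (Taf7l KO) and of wild-type mice (WT). The 10 genes were chosen by name, as Myl1, Myl2, Myl3, Myl4, Myl6, Myl6b, Myl9, Mylpf, Mylk and Mylk2, out of 30649 gene names in the expression table, and they hold 17 of its 55350 transcript rows. Of these genes, 8 encode light chains and 2 encode kinases. By the tissue where each form is known, 6 are skeletal or cardiac forms and 4 are smooth muscle or nonmuscle forms.

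Each genotype is represented by 1 mRNA-seq library made from the pooled RNA of 6 mice, with a background given as C57BL/6 in the labels and as C57BL/6J for the KO line in the methods of the study, with no treatment named in the labels, and the KO mice lack the TFIID subunit paralog TAF7L. One label field gives an age of 1 month for both pools, while another gives 1 month for WT and 3 months for Taf7l KO. The values are FPKM, fragments counted per kilobase of a transcript and relative to library size, so that levels of different genes can be set side by side. With 1 pool per genotype there is no replicate error, no difference has a test, and the comparison is of these 2 libraries. Ratios are given as log2((KO + 0.1)/(WT + 0.1)) on the FPKM summed per gene, which understates the change of low genes. Folds are plain ratios of FPKM. An interval beside a level or fold is a 95% exact interval on the estimated number of reads and covers counting error only. It is left out where the length of the transcript was not settled, as for Myl6, Mylk and the sum of Myl4.

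A myosin motor is built from a pair of heavy chains, and the neck of each carries an essential and a regulatory light chain. In striated muscle the light chains tune a motor that is switched on by calcium through the thin filament. In smooth muscle and nonmuscle cells the motor itself is switched on when myosin light chain kinase, bound to calcium and calmodulin, phosphorylates a serine of the regulatory light chain. Nonmuscle forms are known from cells such as brown fat cells, smooth muscle forms from blood vessels, and the fast, slow and cardiac forms mainly from striated muscle. Which cells of the pad gave the reads of each form was not tested.

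The target serine lies in a stretch that the regulatory light chains share, which is shown here because it ties the kinases to 3 of the members. The stretches are of 48 coding bases from GENCODE M21 transcripts on GRCm38, read 5′ to 3′ on the coding strand, with the codon of the serine in capitals. They come from chr7:127212879-127212926 for Mylpf, chr5:122101764-122101811 for Myl2 and chr2:156778578-156778625 for Myl9, all on the plus strand.
Mylpf: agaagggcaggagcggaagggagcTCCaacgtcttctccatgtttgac
Myl2: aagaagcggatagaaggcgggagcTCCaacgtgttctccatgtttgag
Myl9: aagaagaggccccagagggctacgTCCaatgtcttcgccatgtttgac
The serine is codon 16 in Mylpf, 15 in Myl2 and 20 in Myl9, counted from the start codon. The 2 striated forms Mylpf and Myl2 were identical at 34 of 48 bases, Mylpf and Myl9 at 28, and Myl2 and Myl9 at 32. The serine followed by asparagine, valine and phenylalanine was not found in the translated essential light chains Myl1, Myl3, Myl4, Myl6 and Myl6b.

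Before the values are compared, the extent to which 50 bp reads can tell these genes apart was counted. No 50-base word of the protein-coding transcripts of Mylpf, Mylk2 or Myl9 occurred in a transcript of another gene. Myl1 shared 242 of its 1516 words with 1 processed pseudogene, Mylf-ps, and Myl6 shared 328 of 1969 with 5 processed pseudogenes. For the other 5 members the share ran from 0.122% for Myl4 to 4.19% for Myl3. By shared sequence, though not by counting error, the values of Myl1 and Myl6 are therefore less certain than those of the other members, and how the reads were divided between copies was not tested.

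All 10 genes reached 1 FPKM in at least 1 library and were thus among the 12171 genes compared. Mylk2, Myl2 and Myl3 did so through the KO library alone, so a difference was built into their passing. In KO, 5 of the members exceeded their WT level by 3-fold or more, against 2.05% of all genes compared. The 5 are Mylpf, Myl1, Mylk2, Myl2 and Myl3, all skeletal or cardiac forms. None was at least 3-fold lower, against 0.403% of all genes. At 1.5-fold, Myl6b joined the higher genes to make 6 (5 after correction for GC content and length), against 16.5% of all genes, and none was lower, against 12.7%. The median log2 ratio was 3.25 for the 6 skeletal and cardiac forms and 0.41 for the 4 smooth and nonmuscle forms, while that of all genes compared was 0.010. Fewer cells of a type and less RNA per cell cannot be told apart in such whole-tissue libraries.

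**Figure D1:**
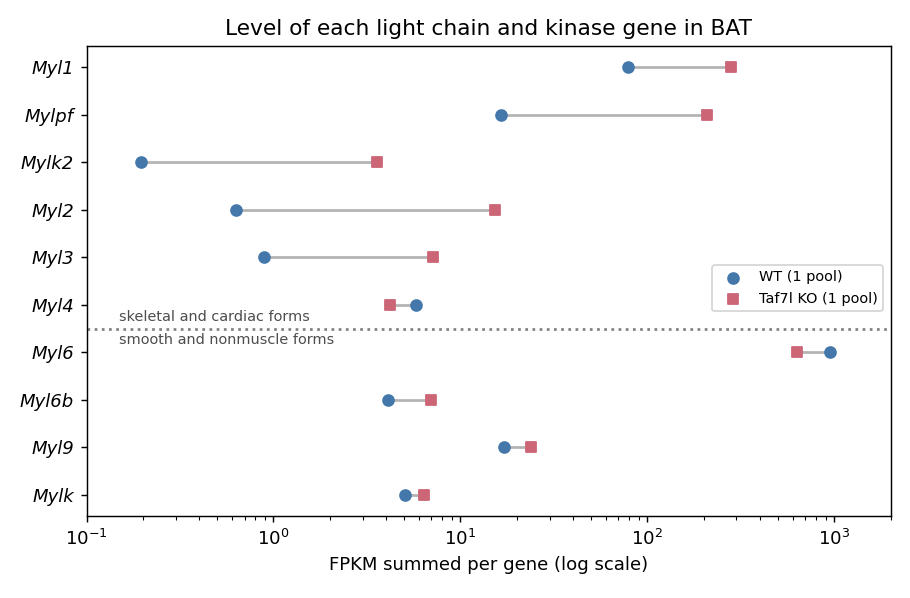
Level of each member in WT BAT (circles) and Taf7l KO BAT (squares), as FPKM summed per gene on a log axis, 1 pooled library per genotype and no error bars. Of the 6 skeletal and cardiac forms, 5 lie to the right in KO and Myl4 to the left, while Myl6 is the highest gene in both libraries.

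The fast skeletal light chains were the most abundant striated forms in both libraries. Mylpf, the regulatory light chain of fast fibres, lies on chromosome 7 of GRCm38 from 127208890 to 127214298. It stood at 16.4 FPKM in WT (interval 14.4 to 18.6) and 209 FPKM in Taf7l KO (205 to 214), a fold of 12.8 with an interval of 11.2 to 14.5. Its log2 ratio was 3.67, and 0.887% of all genes compared had a higher one. Myl1, which encodes both essential light chains of fast fibres, lies on chromosome 1 from 66924295 to 66945404. It stood at 78.4 FPKM in WT (74.2 to 82.8) and 280 FPKM in KO (276 to 285). Its fold of 3.58, the ratio of summed FPKM, was the smallest of the 5 members above 3-fold. The interval of 3.29 to 3.69 is on the reads summed over its 3 rows and is not centred on 3.58. Myl1 gained 202 FPKM and Mylpf 193 FPKM, so that the FPKM added were alike although the folds were not.

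Myl1 has 2 start sites from which its long form (MLC1f) and short form (MLC3f) are made. The first 48 coding bases of each are shown because the forms differ at this end, with the start codon in capitals. Those of MLC1f come from its GENCODE transcript at chr1:66944858-66944905. Those of MLC3f span an intron, from base 66930310 to 66935278 of the same chromosome. Both are written on the coding strand, which is the minus strand.
MLC1f: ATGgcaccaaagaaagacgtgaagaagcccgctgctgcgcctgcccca
MLC3f: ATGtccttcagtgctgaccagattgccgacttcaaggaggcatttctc
The first 141 coding bases of MLC1f and the first 27 of MLC3f are their own, and the other 426 are common to both, so the end of the MLC3f stretch shown is already common sequence. The row that spans both start sites (20761 bp) and matches the MLC1f transcript had 23.0 FPKM in WT against 73.5 in KO, a fold of 3.20 with an interval of 2.92 to 3.51. The row that matches the MLC3f transcript had 32.8 FPKM in WT against 113 in KO, a fold of 3.45 (3.15 to 3.79). The other row had 22.7 FPKM in WT against 93.8 in KO, a fold of 4.14 (3.64 to 4.73). The 3 rows thus held similar shares of the gene in both libraries, at 29.3% and 26.2% for the long form, 41.8% and 40.3% for the short form and 28.9% and 33.5% for the other row. The rows share most of their sequence and the authors ran 1 iteration of the likelihood step that divides reads among them, which limits how far they can be read apart.

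**Figure D2:**
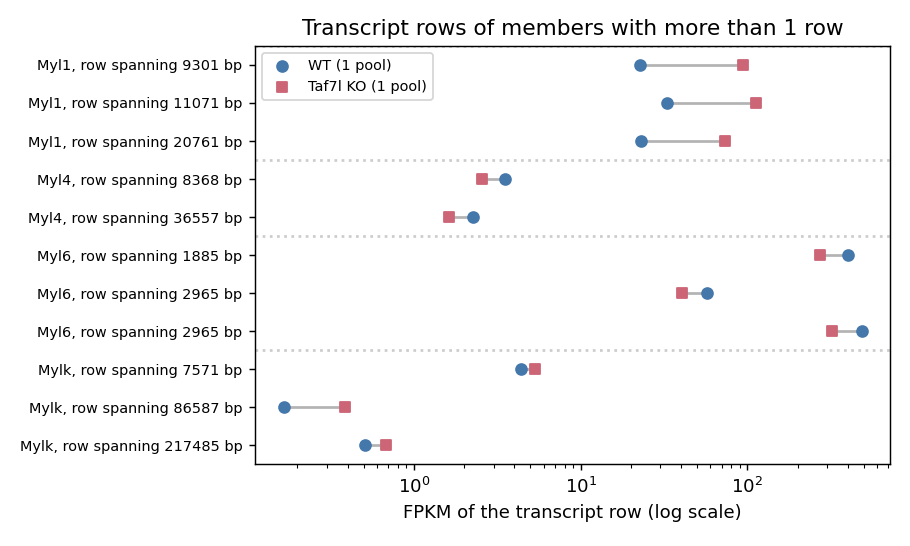
FPKM of each deposited transcript row of the 4 members with more than 1 row, in WT (circles) and Taf7l KO (squares), on a log axis. Every row of Myl1 and Mylk is higher in KO, and every row of Myl4 and Myl6 is lower.

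The ratios of the fast light chains to each other and to the fast heavy chains differed between the libraries. FPKM of Myl1 were 4.78 times those of Mylpf in WT and 1.34 times in KO. Against the summed fast myosin heavy chains Myh1, Myh2 and Myh4 (2.33 FPKM in WT against 82.9 in KO), Myl1 stood at 33.6 times in WT and 3.38 times in KO, and Mylpf at 7.03 times and 2.52 times. The excess of light chain over heavy chain was therefore larger in WT for both. Against skeletal alpha-actin, Acta1, which had 9.92 FPKM in WT against 348 in KO, Myl1 went from 7.90 to 0.806 times and Mylpf from 1.65 to 0.602 times.
All 8 markers of the skeletal fibre were also at least 3-fold higher in KO, against 2.05% of all genes compared. Their summed level was 76.5 FPKM in WT against 1389 in KO, and none of them was at 0. Of these markers, Ryr1 entered the comparison through the KO library alone. The fold of Myl1 was below that of each of the 8. Nearest to it was parvalbumin (Pvalb), the calcium buffer of fast fibres, with 27.6 FPKM in WT against 186 in KO, a fold of 6.74 with an interval of 6.18 to 7.35. The fold of Mylpf was below that of 7 of the 8 markers. The interval of Ckm, the muscle creatine kinase, was 12.2 to 14.9 and overlapped that of Mylpf. Among genes at 10 FPKM or more in KO and above 0 in WT, the 5 whose log2 ratios came nearest to that of Mylpf were Mb (myoglobin, 3.68), Ckm (3.74), Ldb3 (a Z-disc protein, 3.79), Pygm (muscle glycogen phosphorylase, 3.54) and Tnnc1 (slow troponin C, 3.81). This likeness rests on 1 difference between 2 libraries.

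The slow skeletal and ventricular light chains were low in WT, so that their folds have wide counting intervals. Myl2, their regulatory light chain, on chromosome 5 from 122100951 to 122113472, had 0.628 FPKM in WT against 15.3 in KO. These correspond to about 8 reads and 556 reads, and the fold of 24.4 has an interval of 11.5 to 53.3. Myl3, their essential light chain, on chromosome 9 from 110741861 to 110769798, had 0.887 FPKM in WT against 7.12 in KO, or about 17 and 412 reads, with a fold of 8.03 (4.93 to 13.9). Within this pair too the fold of the essential chain was the lower of both, but here the intervals overlapped. FPKM of Myl3 were 1.41 times those of Myl2 in WT and 0.465 times in KO.
The slow forms remained a small part of the striated light chains. Myl2 stood at 0.0383 times Mylpf in WT and 0.0732 times in KO, and Myl3 at 0.0113 times Myl1 in WT and 0.0254 times in KO. Myl2 and Myl3 serve both slow fibres and the ventricle, and the markers of these tissues differed. The 5 slow fibre markers include Myh7 and Tnnt1 and are in part shared with heart. They summed to 1.44 FPKM in WT against 35.5 in KO. All 5 were at least 3-fold higher, against 2.05% of all genes compared. Each was below 1 FPKM in WT and entered through the KO library alone, so a difference was built into their passing. Of 8 heart markers, 7 were below 1 FPKM in both libraries and together came to 0.366 FPKM in WT against 0.588 in KO. Nppb, Mybpc3 and Myl7, the atrial regulatory light chain, were at 0 in both. The other heart marker, Myh6, reached 35.0 FPKM in KO with a log2 ratio of 4.65. A single row of 516 bp gave 98.5% of that KO level, and whether its reads are shared with another gene was not tested.

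Myl4, the essential light chain of the atrium and of embryonic muscle, was the only skeletal or cardiac member with a lower level in KO. It lies on chromosome 11 from 104550663 to 104595753 and had 5.75 FPKM in WT against 4.19 in KO, a log2 ratio of -0.45. Its 2 rows behaved alike, at 0.730 and 0.723 times the WT level. For the row of 36557 bp the estimated reads were 40 in WT and 87 in KO, and the interval of the fold, 0.488 to 1.07, includes no change. In WT Myl4 was above Myl2 and Myl3, and in KO it was below both.

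Myl6, the essential light chain of smooth muscle and nonmuscle cells, was by far the highest member in both libraries. It lies on chromosome 10 from 128490860 to 128494145 and had 944 FPKM in WT against 633 in KO, a difference of -311 FPKM and a log2 ratio of -0.58. Its KO level was 0.670 times that of WT, or 1.49-fold lower, just short of the 1.5-fold mark. All 3 rows were lower in KO, at 0.661, 0.676 and 0.708 times the WT level. Only 0.871% of the genes compared had a higher level in WT, and 1.16% in KO.
Myl6b, which lies directly beside Myl6 (chromosome 10, 128494157 to 128498685) and encodes an essential light chain of nonmuscle cells and slow muscle, moved the other way. It had 4.09 FPKM in WT against 6.92 in KO, a fold of 1.69 with an interval of 1.34 to 2.14. Its log2 ratio was 0.54 once GC content and length were corrected for, short of the 1.5-fold mark. Myl9, the regulatory light chain of smooth muscle (chromosome 2, 156775420 to 156781658), had 17.1 FPKM in WT against 23.9 in KO, a log2 ratio of 0.48, and its fold had the counting limits 1.26 and 1.56. The intervals of both leave out 1, yet 11.4% of all genes compared had a higher log2 ratio than Myl6b and 20.8% a higher one than Myl9.
The nonmuscle regulatory light chains Myl12a and Myl12b, listed in the table under older names, had log2 ratios close to that of Myl9 and higher levels. Myl12a had 36.4 FPKM in WT against 51.6 in KO, and Myl12b 51.4 FPKM in WT against 73.2 in KO, log2 ratios of 0.50 and 0.51. The 48-base target stretches of these neighbours on chromosome 17 are identical to each other. Myl6 thus stood at 9.01 times the summed Myl9, Myl12a and Myl12b in WT and at 4.26 times in KO.
The 8 markers of smooth muscle and mural cells, pericytes included, summed to 48.5 FPKM in WT against 55.5 in KO, and none was at 0. Of the 5 compared, 2 were at least 1.5-fold higher, against 16.5% of all genes, and none lower, against 12.7%. Smtn, among the higher, had a log2 ratio of 1.28, while Acta2, the smooth muscle actin, had 0.29 and Tagln -0.42. The part of these cells in the values of Myl9 was not tested.

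The share of each gene in the light chain pool shows the change of make-up. Over the 8 light chain members, FPKM came to 1068 in WT and 1180 in KO. The 5 skeletal and cardiac light chains made up 9.56% of that sum in WT and 43.7% in KO, with 102 FPKM and 516 FPKM. The 3 smooth and nonmuscle light chains had 966 FPKM and 664 FPKM. Myl6 alone was 88.5% of the pool in WT and 53.6% in KO. Myl1 went from 7.34% to 23.8% and Mylpf from 1.54% to 17.7%, whereas Myl2, Myl3 and Myl4 together with Myl6b and Myl9 each held at most 2.02% in either library. With Myl12a and Myl12b counted among the nonmuscle forms, the skeletal and cardiac share was 8.83% in WT and 39.6% in KO.

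**Figure D3:**
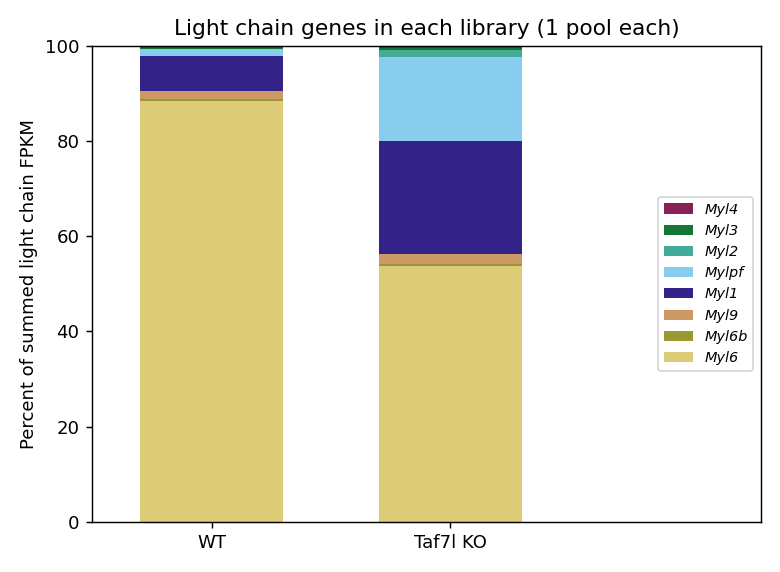
Percent of the summed FPKM of the 8 light chain members that each gene holds, in WT BAT and Taf7l KO BAT, 1 pooled library each. Myl6 takes 88.5% of the WT bar and 53.6% of the KO bar, and Myl1 and Mylpf make up most of the rest in KO.

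In order of level, the WT library ran Myl6, Myl1, Myl9, Mylpf, Myl4, Mylk, Myl6b, Myl3, Myl2 and Mylk2. The KO library ran Myl6, Myl1, Mylpf, Myl9, Myl2, Myl3, Myl6b, Mylk, Myl4 and Mylk2. Counting intervals overlapped in WT for Myl9 (15.4 to 18.8 FPKM) and Mylpf, for Myl3 (0.519 to 1.43 FPKM) and Myl2 (0.289 to 1.32 FPKM), and for Myl2 and Mylk2 (0.107 to 0.329 FPKM). In KO they overlapped for Myl3 (6.44 to 7.83 FPKM) and Myl6b (6.29 to 7.59 FPKM). Mylpf and Myl9 were thus about level in WT and far apart in KO, where Myl9 stood at 0.114 times Mylpf.

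The skeletal kinase was more than 3-fold higher in KO and the smooth muscle and nonmuscle kinase was not. Mylk2, the skeletal muscle kinase, which phosphorylates the fast regulatory light chain, lies on chromosome 2 from 152911352 to 152923068. It had 0.196 FPKM in WT against 3.57 in KO, or about 14 and 772 reads, a fold of 18.2 with an interval of 10.8 to 33.4. Its FPKM summed per gene was the lowest of the members in both libraries, in WT with an interval that overlapped that of Myl2. Mylk2 stood at 0.0120 times Mylpf in WT and 0.0171 times in KO. Mylk, the kinase of smooth muscle and nonmuscle cells, on chromosome 16 from 34745210 to 35002420, had 5.03 FPKM in WT against 6.38 in KO, a log2 ratio of 0.34. Summed over its rows, Mylk stood at 25.7 times Mylk2 in WT and at 1.79 times in KO, which does not hold for its full-length row alone.
Most of the Mylk FPKM was listed in a row other than that of the full-length kinase. A row of 7571 bp held 86.6% of the Mylk FPKM in WT and 83.4% in KO, at 4.36 FPKM and 5.32 FPKM. Telokin, a short protein made of the end of the kinase and without its catalytic domain, is encoded at the 3′ end of the gene. The row of 7571 bp matched no protein-coding transcript by its span, and whether it is that of telokin was not settled. How reads were divided between it and the row of the full-length kinase was not tested. The row of the full-length kinase, matching a transcript of 7824 nt, had 0.508 FPKM in WT against 0.676 in KO, a fold of 1.33 with an interval of 1.07 to 1.68. This row was above Mylk2 in WT (0.196 FPKM) and below Mylk2 in KO (3.57 FPKM). An entry spelled Mlyk, which is no member by name, had 0.0992 FPKM in WT against 0.310 in KO in its higher row.

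**Figure D4:**
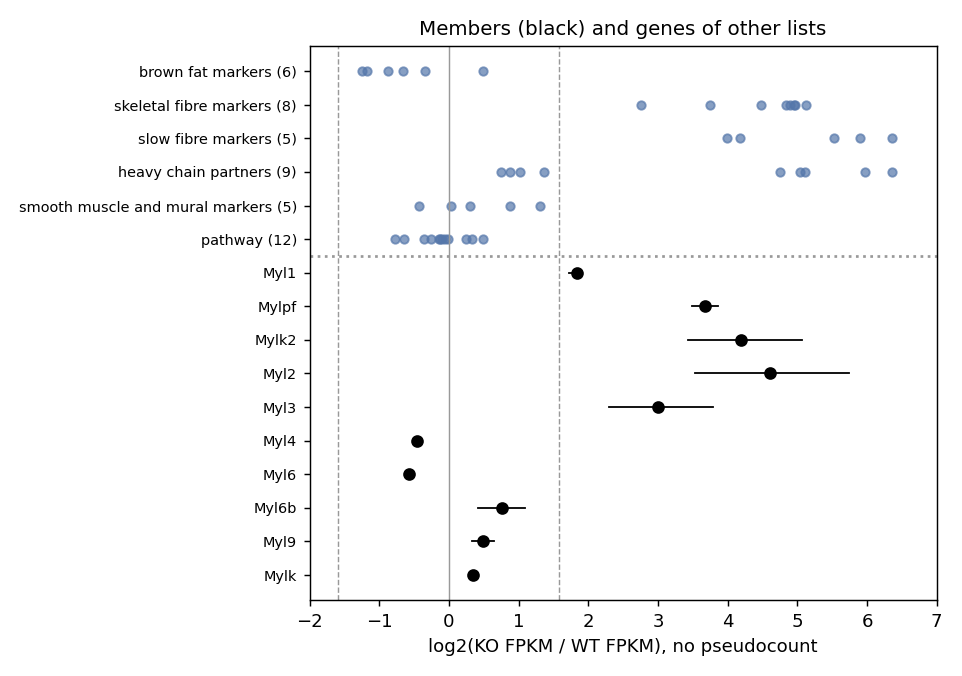
Log2 of KO over WT FPKM without a pseudocount, for each member (black, with the counting interval where reads could be estimated) and for the compared genes of 6 other lists (blue, number of genes in brackets), 1 pooled library per genotype. Dashed lines mark 3-fold in either direction. Myl1, Mylpf, Mylk2, Myl2 and Myl3 lie beyond the upper line with the skeletal and slow fibre markers, and the other 5 members lie between the lines with the pathway genes.

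Of 13 genes that act on light chain phosphorylation, 12 were compared, with log2 ratios from -0.78 to 0.49 and a median of -0.11. None was at least 1.5-fold higher, against 16.5% of all genes, and 2 were at least 1.5-fold lower, against 12.7%. The 2 were Ppp1cb, the catalytic subunit of myosin phosphatase, with 68.7 FPKM in WT against 40.0 in KO, and Rock1, a kinase that inhibits this phosphatase, with 4.31 FPKM in WT against 2.77 in KO. Rhoa, the GTPase that activates Rock1, had 106 FPKM in WT against 105 in KO. The calmodulin gene Calm2 had 89.7 FPKM in WT against 82.2 in KO. Ppp1r12b, a targeting subunit of the phosphatase found in striated muscle, did not reach 1 FPKM and was not compared, with 0.174 FPKM in WT against 0.730 in KO.
All 9 heavy chain partners were at least 1.5-fold higher in KO, against 16.5% of all genes. The 9 include Myh6, for which the single row of 516 bp described above gave 98.5% of the KO level. Myh1, Myh2, Myh7, Myh10 and Myh14 were below 1 FPKM in WT and entered through the KO library alone. A difference was thus built into the passing of these heavy chains. The striated forms were higher by more than 3-fold, with 0.199 FPKM in WT against 12.5 in KO for Myh1, 0.125 and 4.29 FPKM for Myh2, 2.01 and 66.1 FPKM for Myh4, and 0.0351 and 2.89 FPKM for Myh7. The nonmuscle chain Myh9 had 8.41 FPKM in WT against 17.0 in KO, Myh10 had 0.995 and 1.68 FPKM, and Myh14 had 0.636 and 1.64 FPKM, while the smooth muscle chain Myh11 had 1.27 and 2.33 FPKM. The nonmuscle heavy chains and Myl6, which belong to the same motor, thus went in opposite directions. The light chains Myl6b, Myl9, Myl12a and Myl12b were higher in KO, as the heavy chains were. Values corrected for GC content are not given for the heavy chains. Of the other light chains and kinases looked for, Myl10 stood at 0.639 FPKM in WT against 0.142 in KO. Mylk3 was at 0 in WT and 0.0101 FPKM in KO. Myl5 and Mylk4 were looked for by symbol and older names but not matched to a single gene name, so they have no values here.

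The stretch before the start of a gene is shown for 3 members that were higher in KO and for Myl6, which was not, with the motifs found in capitals. RefSeq start windows on GRCm38.p6 matched 9 of the 10 members by symbol. Each line gives the 100 bases before the start on the coding strand. They lie at chr7:127211508-127211607 for Mylpf, chr9:110763578-110763677 for Myl3, chr1:66945057-66945156 for the long form of Myl1 and chr10:128493887-128493986 for Myl6, the first pair on the plus strand and the second on the minus strand.
Mylpf: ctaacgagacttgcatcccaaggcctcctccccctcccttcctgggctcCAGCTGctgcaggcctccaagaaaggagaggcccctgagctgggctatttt
Myl3: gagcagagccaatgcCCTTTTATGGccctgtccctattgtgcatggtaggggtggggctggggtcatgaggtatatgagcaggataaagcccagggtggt
Myl1: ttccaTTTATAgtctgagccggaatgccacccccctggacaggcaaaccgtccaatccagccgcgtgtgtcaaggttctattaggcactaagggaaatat
Myl6: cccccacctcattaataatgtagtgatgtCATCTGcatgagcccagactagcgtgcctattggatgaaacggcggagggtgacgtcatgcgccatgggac
The motifs searched for, on both strands and over 250 bases before the start, were the E-box (CANNTG, bound by myogenic and many other factors), TATAAA, the CArG box of serum response factor and the MEF2 site, and no matches overlapped. Mylpf had an E-box at -51 and Myl6 one at -71. Myl3 had a CArG box at -85 and an E-box outside the part shown, and Myl1 had TATAAA on the opposite strand at -95 and an E-box outside the part shown. Of the 32851 windows of all genes, 66.2% held an E-box, 12.4% TATAAA, 1.47% a CArG box and 2.92% a MEF2 site. A CArG box also lay in the window of Myl9, which was not 1.5-fold higher, and in that of the second start of Myl6. The windows of Myl2 start 7762 bp or more from the annotated start of the transcript measured here and are not shown. A match is a description of the letters only.

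The libraries differed in depth and in the markers of the tissue. About 25929000 reads were mapped for WT by estimate, and about 78634500 for KO, so that low genes are less certain in WT. Taf7l itself stood at 0.0222 FPKM in WT against 0.00734 in KO, about 1 read in each, too few to check the genotype labels. Of the 6 fat markers, Ucp1, Cidea and Cox7a1 are those of brown fat, while Adipoq, Fabp4 and Pparg also mark white fat. All were well above 0 in both libraries, with sums of 29675 FPKM in WT against 15915 in KO. Of these markers, 4 were at least 1.5-fold lower in KO, against 12.7% of all genes compared. Pparg had the higher level in KO, with 137 FPKM in WT against 191 in KO. The skeletal fibre and slow fibre markers given above were higher in KO, as were Myl1, Mylpf, Mylk2, Myl2 and Myl3. From 1 difference between 2 libraries, these members cannot be paired with either list of markers. The study states that surrounding tissue was removed at dissection. It also reports muscle-like tissue along the BAT of Taf7l KO embryos, seen by staining for myosin heavy chain. In the whole-tissue values used here, muscle within the pad and muscle taken along with it cannot be told apart.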

How the data were processed

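Per the methods of the study, the RNA of 6 mice per genotype was pooled, and 50 bp single-end reads were mapped with TopHat 1.4.0 and quantified with cufflinks 1.3.0 at 1 likelihood iteration. The authors deposited 1 FPKM value per UCSC transcript and library. The submitters' processing notes name Bowtie and mm10, yet only 314 of 7062 genes with 1 row start within 1000 bp of their GRCm38 position. Apart from the spans of rows, positions in the table were therefore not used, and those given are of GENCODE M21 on GRCm38.

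Rows of the same gene name were added up. A gene entered the comparison when either library had 1 FPKM or more, and 0.1 FPKM was added before taking ratios. The 3-fold mark is that of the study. On gene sums with this filter and with 0.1 FPKM added, 250 of 12171 genes were at least 3-fold higher and 49 at least 3-fold lower. These are fewer genes than the study reports beyond that mark. Depth was estimated from genes with 1 exon and 1 row spanning over 600 bp, for which FPKM times effective length (fragments of 200 bp, SD 80 bp) falls on whole reads. Of the values under 8 reads, a share of 88.5% (104 values, WT) and 82.4% (74 values, KO) lay no more than 0.05 from a whole read. Reads of a member were estimated where its rows matched the span of a protein-coding transcript within 100 bp. Folds have 95% Clopper-Pearson intervals and levels exact Poisson intervals. For a gene with several rows the reads were summed, so the interval need not be centred on the ratio of summed FPKM.

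The members and lists were chosen with earlier results of these data known. Named genes are the members, all heavy chain partners and, from the other lists, those with the highest mean or at least 1.5-fold changed; Myl10, Mylk3, Ppp1r12b and the marker genes were named after their values were seen. Older gene names were matched through RefSeq synonyms. The ratio and interval code was tested on simulated reads. Computations used scipy 1.17.1 and numpy 2.4.6 with pandas 2.3.3 under Python 3.11.15, and plots matplotlib 3.10.9. Alternatives covered the pseudocount, the filter, scaling, rows and GC content with length.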

Additional observations from a re-analysis of the deposited data

How the results depend on the processing

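No paired analysis was possible because WT and KO each have a single library. A log2 ratio or median was taken as kept when it moved by less than 1.5-fold, and a count or share when it stayed within 1.5 times. Of 85 values of single members under 9 alternatives, 82 were kept. The other 3 were those of Mylk2, Myl2 and Myl3 with a pseudocount of 1 FPKM, at 1.93, 3.33 and 2.11, and the median of the skeletal and cardiac forms then fell to 2.02. With a minimum of 10 FPKM, 5 members were left, of which 3 were at least 3-fold and 3 at least 1.5-fold higher, and the median of the smooth and nonmuscle forms was -0.048. Myl6 passed the mark of 1.5-fold lower, as 1 member, when the libraries were scaled to the same upper quartile or when only the highest row of each gene was used, with a log2 ratio of -0.60 in each case. The ratio moved with GC content over all genes, with a median log2 ratio of 0.37 in the fifth of genes with the most and -0.36 in the fifth with the least. After correction for GC content and length, which had values for 68.8% of the genes compared and for all 10 members, the log2 ratio was 2.02 for Myl1, 3.72 for Mylpf, 0.54 for Myl6b, 0.40 for Myl9 and 0.080 for Mylk, and 5 members were at least 1.5-fold higher. Adding Myl12a and Myl12b to the light chain pool and leaving Myl4 out of the median, which gave 3.63, were chosen after seeing the data.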
